A study of Mus musculus with 12 samples.

Results

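The clustered histone genes are the genes named Hist1, Hist2, Hist3 and Hist4 after the 4 places in the mouse genome where they lie together. The members were every row of the 12 count tables whose symbol starts with one of these names followed by h, which gave 69 of 35976 gene symbols. By class there were 6 linker histone H1 genes, 19 H2A, 19 H2B, 12 H3 and 13 H4 genes. By name, 55 belong to Hist1 on chromosome 13, 10 to Hist2 on chromosome 3, 3 to Hist3 on chromosome 11 and 1 to Hist4 on chromosome 6 (GRCm38, the same assembly as mm10). GENCODE lists 2 of the members as processed pseudogenes, Hist1h2al and Hist3h2bb-ps, and both are kept in the counts by class. Hist1h2al lies at chr13:51202727-51203065, outside the span of the other Hist1 members, and is among the H2A members tested below. RNA was sequenced from testes of outbred Swiss mouse embryos at E15.5, each library being a pool of 3 embryos. There were 4 groups of 3 libraries. F1 control embryos came from mothers gavaged with the oil vehicle (0 mg/kg/day) from E6.5 to E15.5, and F1 *thia* embryos from mothers given 6 mg/kg/day of thiacloprid (*thia*), a neonicotinoid insecticide, over the same days. F3 control and F3 *thia* embryos descended from such mothers through males that were crossed with untreated females, so F3 embryos were not dosed themselves. The F3 libraries stood apart from the F1 libraries as whole sets, and generation cannot be told apart from any difference in how the 2 sets were collected or sequenced.

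Of these classes, H2A, H2B, H3 and H4 form the octamer around which DNA winds, and H1 binds the DNA between octamers. Clustered histone genes are mostly transcribed in S phase, when replicated DNA needs new histones. Their mRNAs are known for ending in a conserved stem-loop in place of a poly(A) tail. The protein Slbp binds that stem-loop, and U7 small nuclear RNA guides the cut just after it. Some clustered genes also make spliced or longer transcripts with a poly(A) tail, and so do the variant histone genes that lie elsewhere and are used outside S phase. In the fetal testis at this stage, Sertoli cells and other somatic cells divide while germ cells enter a mitotic arrest.

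The stem-loop was found in the GENCODE vM21 transcript model of 41 of the 69 members, by a search of its sense strand for GGNNCTTTTNAGNGCC, where N is any base. The absence of a match says only that these letters are not in that model, since several models stop at the coding sequence. The form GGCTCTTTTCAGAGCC was found in 25 members, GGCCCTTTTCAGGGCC in 7, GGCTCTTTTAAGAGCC in 6, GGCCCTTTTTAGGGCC in 2 and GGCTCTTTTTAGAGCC in 1. The sequences of 7 of the members described below are shown because the end of the transcript is what sets these genes apart from other mRNAs. They are written 5′ to 3′ as DNA, with the stem-loop in capitals.
Hist1h2ap: aaaaaaaGGCTCTTTTCAGAGCCatc
Hist1h2ag: caacaaaGGCTCTTTTCAGAGCCacctaac
Hist1h2ao: aaaaaaaGGCTCTTTTCAGAGCCatccaca
Hist1h1c: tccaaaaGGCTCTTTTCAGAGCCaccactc
Hist3h2ba: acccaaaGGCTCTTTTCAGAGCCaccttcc
Hist1h3c: aaaaaaaGGCTCTTTTAAGAGCCacctaag
Hist1h4i: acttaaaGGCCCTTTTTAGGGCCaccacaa
In Hist1h2ap, Hist1h2ag and Hist1h2ao, the H2A genes with the most counts, the model ended 3, 23 and 31 bases after the loop. In Hist1h1c it ran on for 840 bases, in Hist1h4i for 330 and in Hist3h2ba for 169. Among the 41 models with the loop, 20 ended at most 100 bases after it and 21 ran further.

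Clustered histone mRNAs were a small part of these libraries. Total counts ran from 25081647 to 68996146 per library, and the 69 members together took between 2213 and 8517 of them, which is 0.00882 to 0.0151% of a library. In CPM, which are counts scaled to the size of each library with the TMM factors of edgeR, the members summed to 117, 109 and 82.0 in the F1 control libraries and to 112, 96.1 and 130 in F1 *thia*. The sums were 126, 95.3 and 120 in F3 control and 99.2, 167 and 107 in F3 *thia*. The groups overlapped in both generations, with F3 *thia* replicate 2 the highest of all libraries. The mean was 1.10 times the control mean in F1 *thia* and 1.09 times in F3 *thia*. By comparison, 15 variant histone genes summed to between 3706 and 4837 CPM. Genes of S phase, 38 in all, summed to between 3081 and 4081 CPM. Whether poly(A) RNA was selected before the libraries were made is not given in the sources used here. Among 35 genes for RNAs without a poly(A) tail, such as 7SK and U7, 31 were in the count tables, and these summed to 16.2 to 57.0 CPM in the F1 libraries and 2.98 to 7.32 CPM in the F3 libraries. Their part in the members' levels was not tested. In bulk tissue, fewer cells of a type and less RNA per cell cannot be told apart.

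Within the family the counts were concentrated in few genes. The 10 members with the highest CPM held 84.9% of the members' sum, and the leading 3, Hist1h2ap, Hist1h2ag and Hist1h1c, held 51.3%. Only 9 members had 1000 or more counts over the 12 libraries, 22 had fewer than 100, and Hist3h2a had none. Per kilobase of gene model, which allows genes to be compared, Hist1h2ap was at 47.1 ± 24.1 CPM per kb (SD, n = 12) and Hist1h2ag at 43.6 ± 16.9, which did not differ beyond their spread. Hist1h1c, an H1 gene, followed at 22.3 ± 5.06 CPM per kb, below the mean of Hist1h2ag by more than the SD of either. Hist1h2ao at 14.4 ± 8.33 and the H4 gene Hist1h4i at 11.9 ± 4.46 overlapped each other. The H2B genes Hist1h2bc at 7.66 ± 1.51 and Hist3h2ba at 7.33 ± 3.13 were also within each other's spread. Hist1h2ae at 3.75 ± 0.797 and Hist2h2be at 3.67 ± 0.553 completed the 9. The leading H3 gene, Hist1h3c, reached 1.78 ± 0.505 CPM per kb, and the median of the 69 members was 0.535.

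**Figure D1:**
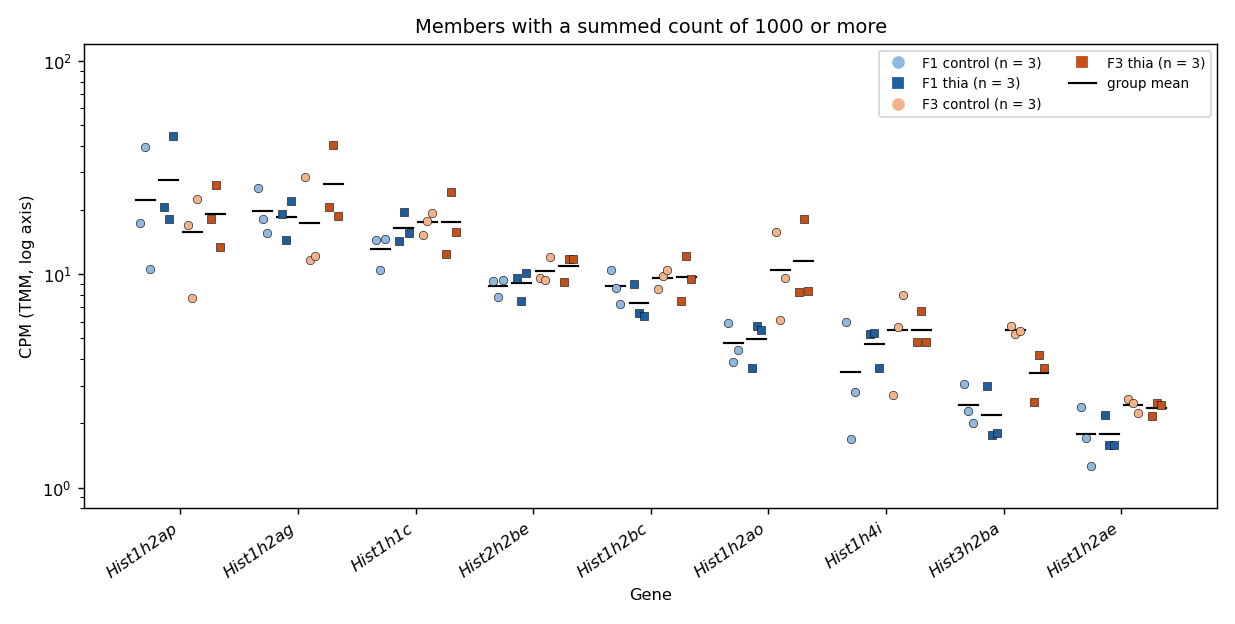
CPM of the 9 members with a summed count of 1000 or more in each of the 12 libraries, on a log axis, with circles for control, squares for thia and a bar for each group mean. Hist2h2be and Hist1h2bc sit in narrow bands, whereas Hist1h2ap spreads from 7.74 to 44.4 CPM.

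The most abundant members were not the most even ones. Hist1h2ap was at 17.3, 39.3 and 10.6 CPM in F1 control and at 20.7, 18.1 and 44.4 CPM in F1 *thia*. In F3 it was at 16.9, 7.74 and 22.5 CPM in control and at 18.1, 26.3 and 13.4 CPM in *thia*. Libraries of the same group thus differed widely, and control and *thia* overlapped in both generations. The SD within groups, pooled over the 4 groups, was 54.3% of the mean for Hist1h2ap, 48.0% for Hist1h2ao and 40.3% for Hist1h2ag, where counting error alone gives 3.09, 5.43 and 3.28%. It was 13.8% for Hist2h2be, 18.9% for Hist1h2bc and 22.9% for Hist1h1c. These genes also differ in how much sequence they share. Of all stretches of 100 bases in the transcript model, 7.83% of those of Hist1h2ap, 7.35% of those of Hist1h2ao and 23.8% of those of Hist1h2ag occur in no other member, against 100% for Hist2h2be, 74.6% for Hist1h2bc and 94.9% for Hist1h1c. Of the 9 members with 1000 or more counts, 6 have 50% or more of such stretches. The SD within groups ran from 13.8 to 38.9% over these 6, so the highest came close to Hist1h2ag. The 3 with under 50% are also the 3 of the 9 whose model ends at most 100 bases after the loop. The part of either trait in the spread was not tested. How reads that match several copies were counted is not stated, so the split of counts among near-identical copies is uncertain. The 24 members with under 50% of their own sequence held 49.4% of the members' CPM, from 34.2 to 60.9% in single libraries.

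Summed by class, H2A held 49.1 ± 7.88% of the members' CPM (SD, n = 12), H2B 23.8 ± 3.84%, H1 16.2 ± 3.20%, H4 7.26 ± 1.95% and H3 3.57 ± 0.698%. Of neighbours in this order, H2A was above H2B, H1 above H4 and H4 above H3 in all 12 libraries, whereas H1 was above H2B in F1 *thia* replicate 2. This is an order of summed counts, not of transcripts, since the classes differ in gene number and length. Linker histone H1 summed to 16.7, 12.4 and 16.6 CPM in F1 control and to 18.0, 21.0 and 18.3 CPM in F1 *thia*. Here every *thia* library lay above every control library, with means of 15.3 ± 2.47 and 19.1 ± 1.65 CPM (SD, n = 3). Among single genes tested in F1, 6.55% stood apart as higher in this way, and 0 of the 5 H1 genes tested did. The class sums were not tested. In F3 the H1 sum was 17.3, 19.6 and 20.9 CPM in control and 13.6, 25.8 and 17.0 CPM in *thia*, and the groups overlapped. H2A summed to 52.3 ± 16.4 CPM in F1 control, 57.5 ± 17.6 in F1 *thia*, 51.2 ± 17.8 in F3 control and 64.6 ± 23.9 in F3 *thia*, so that each difference was within the spread. H2B was at 24.6 ± 3.71, 23.4 ± 4.05, 30.0 ± 1.95 and 28.5 ± 5.42 CPM in the same order. H3 was at 3.82 ± 1.13, 4.12 ± 1.15, 4.37 ± 0.432 and 3.70 ± 0.965 CPM. H4 was at 6.53 ± 3.41, 8.60 ± 2.05, 8.82 ± 2.51 and 8.61 ± 1.66 CPM. Apart from H1 in F1, control and *thia* libraries overlapped for every class in both generations. Without Hist1h1c, which made up most of the H1 sum, the log2 ratio of *thia* to control for H1 in F3 went from -0.04 to -0.48.

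**Figure D2:**
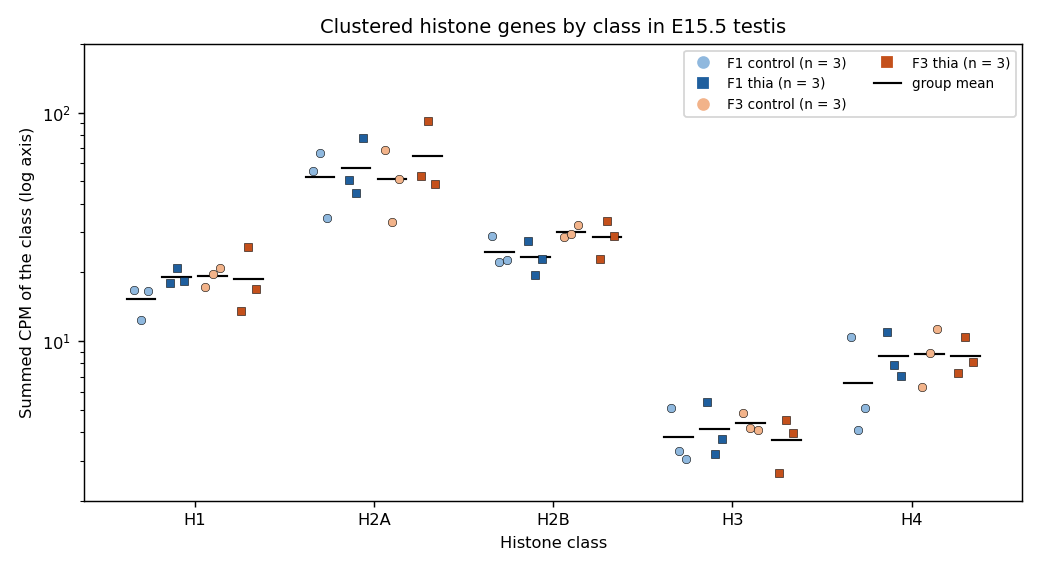
Summed CPM of each histone class in each of the 12 libraries on a log axis, with circles for control, squares for thia and a bar for each group mean. The F1 thia libraries lie above the F1 control libraries for H1, and the groups overlap for H2A, H2B, H3 and H4.

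By cluster, Hist1 held 86.0% of the members' CPM, Hist2 10.7%, Hist3 3.03% and Hist4 0.256%. The Hist3 sum was almost all from Hist3h2ba. It was 2.46 ± 0.573 CPM in F1 control, 2.21 ± 0.713 in F1 *thia*, 5.48 ± 0.232 in F3 control and 3.48 ± 0.833 in F3 *thia* (SD, n = 3), and every F3 *thia* library lay below every F3 control library.

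The first comparison asked whether direct exposure in utero changed these genes. Of the 69 members, 47 passed the filter on low counts in F1, and the quasi-likelihood test of edgeR called none of them (adjusted p below 0.15), against 0.0105% of the 19137 genes in the fit. DESeq2 called none of the 46 members to which it gave an adjusted p, against 1.01% of all genes. At an unadjusted p under 0.05, 2 members were higher and 0 lower, against 4.63 and 4.13% of all genes. Control and *thia* libraries did not overlap in 1 tested member as higher, Hist1h2ai, and 1 as lower, Hist1h3h, against 6.55 and 8.45% of all genes tested. Of the members that failed the filter, Hist1h2ab and Hist2h3b also had every *thia* library above every control library. The log2 fold change was above 0 in 31 of the 47, with a median of 0.23 against 0.01 over all genes. This median rested on single libraries. Without *thia* replicate 1 it was -0.01 with 22 of 47 above 0, without control replicate 2 it was 0.08 with 28 of 49, and without control replicate 1 it was 0.44 with 43 of 49. Beside these differences, 12 germ cell markers summed to 1275 to 1715 CPM in control and 1104 to 1300 in *thia*, and 12 skeletal muscle markers to 50.9 to 125 CPM in control and 67.1 to 657 in *thia*. Without overlap between the groups, 7 macrophage markers summed to 53.2 to 66.5 CPM in control and 69.2 to 83.5 in *thia*, and 5 adrenal markers to 56.5 to 72.4 and 42.4 to 52.8 CPM. Their part was not tested.

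Among the H1 genes, all 5 tested were above 0 in F1, with a median log2 fold change of 0.36. Hist1h1c, the leading H1 gene, was at 14.5, 10.5 and 14.6 CPM in control and at 14.3, 19.6 and 15.7 CPM in *thia*. *Thia* replicate 1 thus lay among the controls, and the log2 fold change was 0.34 ± 0.16 (SE, adjusted p = 0.58, edgeR). Of the H4 genes, 9 of 10 were above 0, with a median of 0.26. The smallest p among them was that of Hist4h4, the lone member of its cluster, which was at 0.290, 0.197 and 0.148 CPM in control and at 0.711, 0.173 and 0.380 CPM in *thia*. Its groups overlapped and its log2 fold change was 0.99 ± 0.51 (SE, adjusted p = 0.60, edgeR). Hist1h4i, the H4 gene with the most counts, was at 5.98, 1.69 and 2.82 CPM in control and at 5.24, 5.30 and 3.65 CPM in *thia*. Control replicate 1 was the highest of the 6, and the log2 fold change was 0.45 ± 0.38 (SE, adjusted p = 0.71, edgeR). It was 1.11 without control replicate 1 and 0.10 without control replicate 2.

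The H2A genes divided in F1, with 7 of 12 above 0 and a median of 0.04. Hist1h2ai was at 0.434, 0.312 and 0.371 CPM in control and at 0.749, 0.644 and 0.487 CPM in *thia*. All *thia* libraries were above all control libraries, and the log2 fold change was 0.76 ± 0.32 (SE, adjusted p = 0.56, edgeR). Hist1h2ak was at 0.352, 0.148 and 0.148 CPM in control and at 0.936, 0.347 and 0.320 CPM in *thia*, where control replicate 1 lay above 2 *thia* libraries. Its log2 fold change was 1.29 ± 0.53 (SE, adjusted p = 0.56, edgeR), and it was 0.60 without *thia* replicate 1 and 1.85 without control replicate 1. Both rest on few counts, 286 and 232 over the 12 libraries. Hist1h2ap, with the most counts, had a log2 fold change of 0.31 ± 0.44 (SE, adjusted p = 0.82, edgeR), which was -0.21 without *thia* replicate 3 and 1.00 without control replicate 2.

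Of the H2B genes in F1, 6 of 12 were above 0, and of the H3 genes 4 of 8. Hist2h2be, the H2B gene with the most counts, was at 9.31, 7.81 and 9.38 CPM in control and at 9.62, 7.46 and 10.1 CPM in *thia*. Control and *thia* were interleaved, and the log2 fold change was 0.06 ± 0.15 (SE, adjusted p = 0.91, edgeR). The H2B gene with the smallest p was Hist1h2bq, with a log2 fold change of -0.67 ± 0.44 (SE, adjusted p = 0.65, edgeR), and 6.11% of its stretches of 100 bases are in no other member. Hist1h3h was at 0.517, 0.541 and 0.593 CPM in control and at 0.430, 0.347 and 0.396 CPM in *thia*. The groups did not overlap, and the log2 fold change was -0.46 ± 0.29 (SE, adjusted p = 0.64, edgeR). Hist1h3c, the H3 gene with the most counts, was at 0.732 ± 0.201 CPM in control and 0.727 ± 0.197 CPM in *thia* (SD, n = 3).

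**Figure D3:**
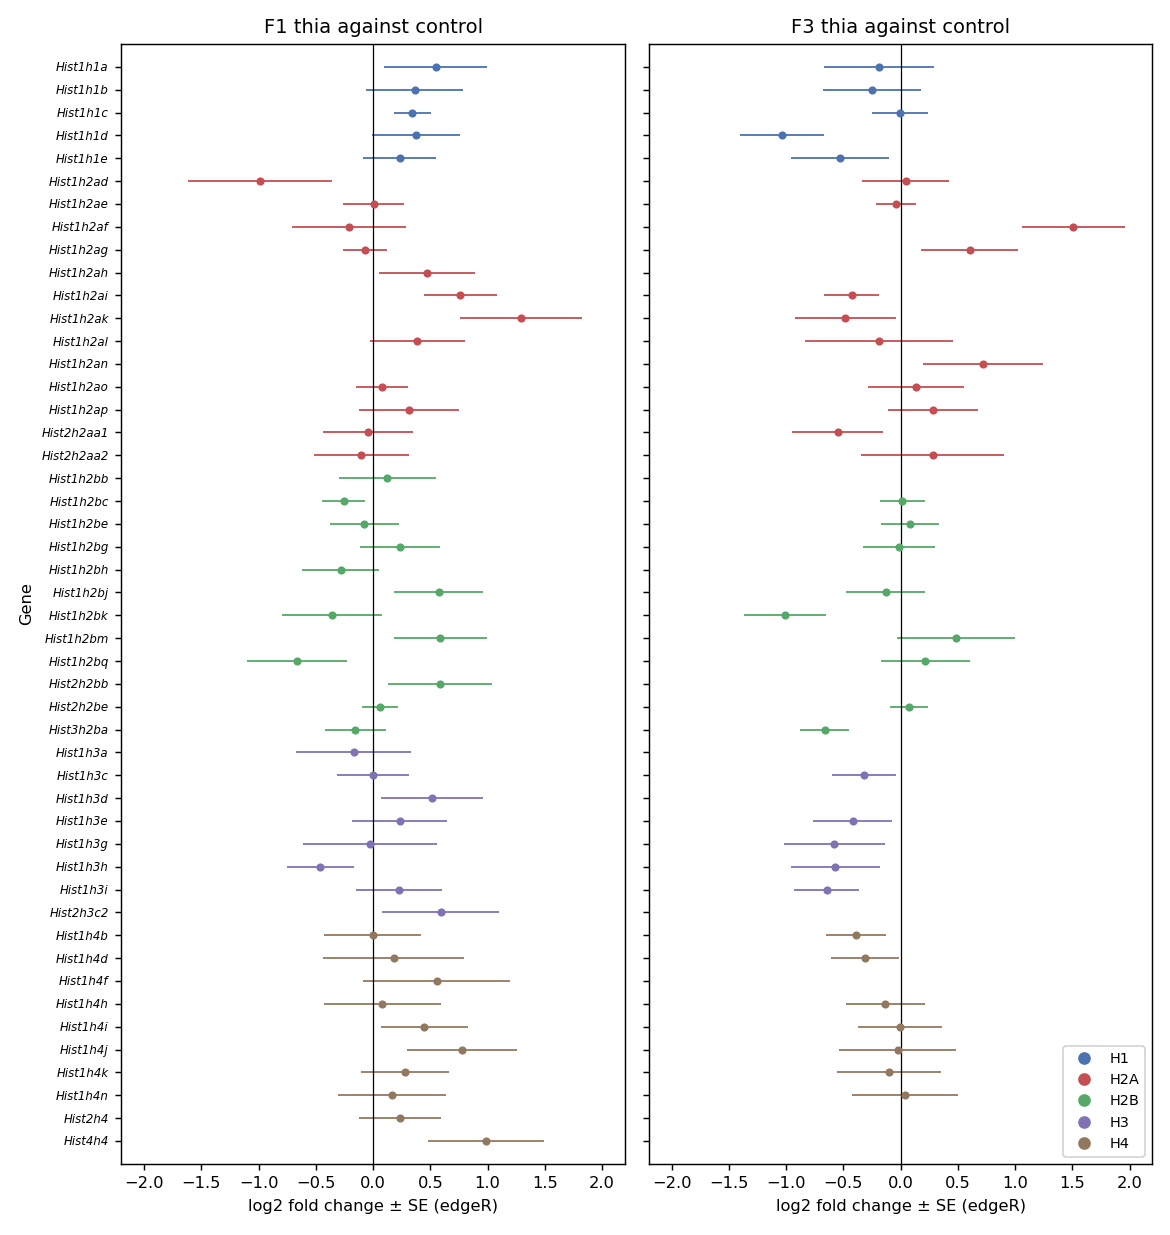
Log2 fold change of thia against control with its SE from edgeR for each member tested, grouped and coloured by histone class, in F1 on the left and F3 on the right, with no point where a member failed the filter. In F1 the 5 H1 genes lie right of 0, and in F3 the 5 H3 genes and 4 of the H1 genes lie left of it and Hist1h1c at it, with no member called in either generation.

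The second comparison asked whether descent from an exposed ancestor changed the same genes in F3. Of the members, 38 passed the filter, and edgeR called none of them (adjusted p below 0.1), as it called 0% of the 18539 genes in the fit. The smallest adjusted p over all these genes was 0.101, just past the threshold. With all 12 libraries in one fit, edgeR called 9.86% of all genes, and with upper quartile scaling 2.80%, but no member in either. At an unadjusted p under 0.05, 1 member was higher and 3 were lower, against 11.0 and 10.0% of all genes. Control and *thia* libraries did not overlap in 1 member as higher and 6 as lower, Hist3h2ba, Hist1h2ai, Hist1h2bk, Hist1h1d, Hist1h3e and Hist1h4b, and over all genes tested this held for 13.4% as higher and 13.9% as lower. The log2 fold change was below 0 in 25 of 38, with a median of -0.12 against 0.00 over all genes. F3 *thia* replicate 2 stood apart from the other F3 libraries, and without it the median was -0.33 with 34 of 42 below 0. Without *thia* replicate 1 the median was 0.02 with 19 of 41 below 0, and with the trend of fold change on gene length removed it was 0.02. Germ cell markers summed to 757 to 1188 CPM in control and 468 to 947 in *thia*, 6 Leydig cell markers to 2189 to 3619 and 3840 to 6968 CPM, and 6 endothelial markers to 160 to 184 and 242 to 292 CPM, and their part was not tested.

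Hist3h2ba, an H2B gene outside the large cluster (GRCm38, chr11:58948920-58949533, plus strand), had the most counts of the members whose F3 groups stood apart. It was at 5.74, 5.23 and 5.42 CPM in F3 control and at 2.52, 4.17 and 3.65 CPM in F3 *thia*. No *thia* library reached the lowest control library. The log2 fold change was -0.66 ± 0.22 (SE, adjusted p = 0.16, edgeR). DESeq2 called it as lower, with an adjusted p of 0.042, as 1 of 11 members to which it gave an adjusted p, against 14.9% of all genes. Without *thia* replicate 2, edgeR called it as well, with a log2 fold change of -0.81 and an adjusted p of 0.099, as 1 of 42 members against 6.82% of all genes. In F1 it was at 3.06, 2.28 and 2.00 CPM in control and at 2.99, 1.76 and 1.80 CPM in *thia*, and the groups overlapped (log2 fold change -0.15 ± 0.27, SE, adjusted p = 0.86, edgeR). The difference between the generations did not pass the test, at -0.49 ± 0.36 on the log2 scale (SE, adjusted p = 0.55, edgeR).

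All 5 H1 genes tested were below 0 in F3, with a median log2 fold change of -0.25, although Hist1h1c was so close to 0 that it was above it with DESeq2 or its size factors. The smallest p was that of Hist1h1d. It was at 0.589, 0.862 and 0.584 CPM in control and at 0.204, 0.489 and 0.314 CPM in *thia*. The groups did not overlap, and the log2 fold change was -1.04 ± 0.37 (SE, adjusted p = 0.18, edgeR). Hist1h1c, in contrast to its F1 values, was at 15.3, 17.8 and 19.5 CPM in control and at 12.4, 24.4 and 15.8 CPM in *thia*. Its highest and its lowest F3 value were both *thia* libraries, and the log2 fold change was 0.00 ± 0.24 (SE, adjusted p = 0.99, edgeR).

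All 5 H3 genes tested were also below 0 in F3, between -0.65 and -0.32, with a median of -0.57, and 7 further H3 genes did not pass the filter. These 7 had few counts and did not all go the same way. Hist2h3c2 had 4, 2 and 7 counts in F3 control and 7, 12 and 33 in F3 *thia*. Hist1h3b had 4, 2 and 5 against 2, 2 and 3. The shared sign thus covers the genes tested, not the whole class. Only 8.01% of the stretches of 100 bases of Hist1h3h and 31.4% of those of Hist1h3i occur in no other member. Hist1h3i was at 0.930, 0.916 and 0.690 CPM in control and at 0.454, 0.719 and 0.464 CPM in *thia*. *Thia* replicate 2 lay above the lowest control library, and the log2 fold change was -0.65 ± 0.28 (SE, adjusted p = 0.25, edgeR). Hist1h3c had a log2 fold change of -0.32 ± 0.28 (SE, adjusted p = 0.55, edgeR). Of the H4 genes, 6 of 7 were below 0, with a median of -0.10, and Hist1h4i among them was above 0 with DESeq2 or its size factors. Hist1h4b had the smallest p, at 0.961, 0.674 and 0.637 CPM in control and 0.636, 0.518 and 0.569 CPM in *thia*, which left a narrow gap between the groups (log2 fold change -0.39 ± 0.26, SE, adjusted p = 0.44, edgeR). Hist1h4i was at 5.46 ± 2.63 CPM in control and 5.47 ± 1.09 CPM in *thia* (SD, n = 3).

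The H2A genes again divided, with 7 of 12 above 0 and a median of 0.09. Hist1h2af had the smallest p of all members in F3. It was at 0.0930, 0.189 and 0.266 CPM in control and at 0.363, 0.489 and 0.719 CPM in *thia*. Every *thia* library lay above every control library, and the log2 fold change was 1.51 ± 0.45 (SE, adjusted p = 0.14, edgeR). Only 34.7% of its stretches of 100 bases occur in no other member, and it had 195 counts over the 12 libraries. In F1 the same gene had a log2 fold change of -0.21 ± 0.49 (SE, adjusted p = 0.90, edgeR). Hist1h2ap had a log2 fold change of 0.28 ± 0.40 (SE, adjusted p = 0.72, edgeR) in F3. Of the H2B genes, 5 of 9 were above 0, with a median of 0.01. Hist1h2bk was at 0.496, 0.566 and 0.319 CPM in control and at 0.204, 0.173 and 0.284 CPM in *thia*. No *thia* library reached a control library, and the log2 fold change was -1.01 ± 0.36 (SE, adjusted p = 0.18, edgeR). Hist2h2be was at 9.61, 9.43 and 12.1 CPM in control and at 9.15, 11.8 and 11.8 CPM in *thia*. Its groups were interleaved again, and the log2 fold change was 0.07 ± 0.17 (SE, adjusted p = 0.83, edgeR).

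Whether *thia* and control differed by another amount in F3 than in F1 was tested as an interaction over the 12 libraries. The test of edgeR called none of 48 members (adjusted p below 0.1), against 0.00510% of 19626 genes. DESeq2 called none of the 8 members to which it gave an adjusted p, against 4.74% of all genes. At an unadjusted p under 0.05, 1 member was higher and 3 were lower, against 7.93 and 6.10% of all genes. The difference was below 0 in 35 of 48 members, with a median of -0.32 against 0.02 over all genes, and the 5 H1 and the 9 H4 genes tested were all below 0. Without F1 *thia* replicate 1 the median was -0.02 with 25 of 48 below 0. With the trend of fold change on gene length removed it was -0.13 with 27 of 48 below 0. The smallest p was that of Hist1h2ai, with a difference of -1.17 ± 0.37 on the log2 scale (SE, adjusted p = 0.25, edgeR). In F3 this gene was at 0.682, 0.647 and 0.584 CPM in control and at 0.454, 0.431 and 0.524 CPM in *thia*, so that *thia* lay below control, where in F1 it had lain above. Hist1h1d had a difference of -1.40 ± 0.57 (SE, adjusted p = 0.31, edgeR). The smallest p of the other classes belonged to Hist1h2bl, at -1.22 ± 0.77 (SE, adjusted p = 0.49, edgeR), Hist1h3i, at -0.86 ± 0.50 (SE, adjusted p = 0.46, edgeR), and Hist1h4j, at -0.78 ± 0.75 (SE, adjusted p = 0.67, edgeR).

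The control groups of the 2 generations differed in more members than did *thia* and control. Of 48 members tested, 7 were higher and 2 lower in F3 control at an adjusted p under 0.1 (edgeR), against 19.9 and 22.4% of all genes tested. The members called were thus a smaller share than among all genes. Hist3h2ba was higher by 2.22-fold, with a log2 fold change of 1.15 ± 0.25 (SE, adjusted p = 0.0050, edgeR), and every F3 control library lay above every F1 control library. Hist1h2ao rose from 5.94, 3.87 and 4.41 CPM to 15.7, 6.09 and 9.64 CPM, a log2 fold change of 1.14 ± 0.37 (SE, adjusted p = 0.032, edgeR). Its near-identical neighbour Hist1h2ap had a log2 fold change of -0.52 ± 0.50 (SE, adjusted p = 0.44, edgeR). Hist1h2ai, Hist1h2ak and Hist1h2an were the other H2A genes called as higher, by 1.71-, 2.58- and 2.63-fold, followed by the H2B gene Hist1h2bj by 1.97-fold and the H4 gene Hist1h4b by 1.81-fold. Hist1h1e, an H1 gene, fell from 0.828, 0.656 and 0.815 CPM to 0.465, 0.216 and 0.425 CPM, a log2 fold change of -1.05 ± 0.38 (SE, adjusted p = 0.052, edgeR). Hist2h4 fell 2.01-fold (adjusted p = 0.097, edgeR). No H3 gene was called, and the smallest p there was that of Hist1h3c, with a log2 fold change of 0.55 ± 0.30 (SE, adjusted p = 0.18, edgeR).

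**Figure D4:**
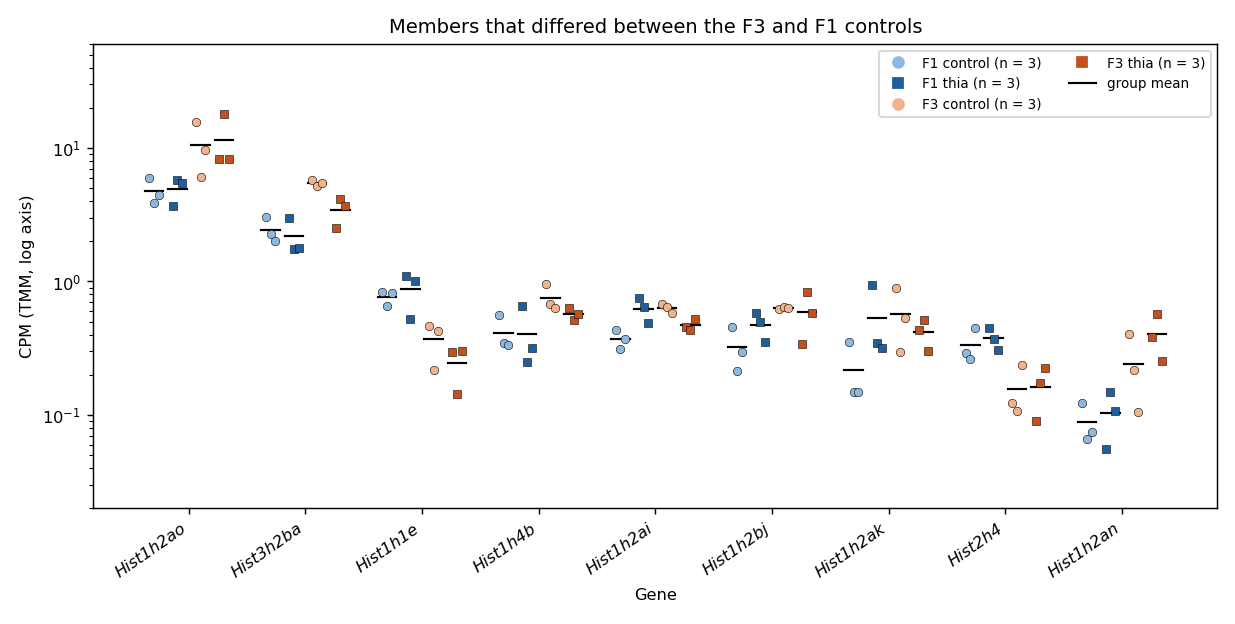
CPM in each of the 12 libraries, on a log axis, of the 9 members called between F3 control and F1 control, with circles for control, squares for thia and a bar for each group mean. Hist3h2ba in F3 control sits between 5.23 and 5.74 CPM, above the F1 control libraries at 2.00 to 3.06 CPM, and Hist1h1e and Hist2h4 are lower in F3.

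Hist3h2ba was the only one of the 9 called in each of the 14 alternatives tried. The number called was 11 without F1 control replicate 1, 2 without F1 control replicate 2, 4 without F1 control replicate 3, 3 without F3 control replicate 1, 6 without F3 control replicate 2 and 8 without F3 control replicate 3. Over all genes, 30.9 to 38.8% were called under these settings, against 42.3% with all libraries. With the trend of fold change on gene length removed, the calls were no longer mostly higher, since Hist3h2ba was called as higher and Hist1h2bh, Hist1h1e and Hist2h4 as lower, against 17.5 and 20.8% of all genes. The other 6 higher calls were lost, and the median of the members went from 0.23 to -0.04. Other measures differed between the same libraries. The summed level of 9 red blood cell markers was 5271 to 15557 CPM in F1 control and 62352 to 67121 CPM in F3 control, and that of 12 germ cell markers 1275 to 1715 and 757 to 1188 CPM. Sertoli cell markers, 8 in number, were at 1252 to 1372 and 514 to 738 CPM. Their part in the members' differences was not tested.

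Divergent pairs, in which an H2A and an H2B gene start close together and point away from each other, are a known feature of these clusters. There were 13 such pairs with starts at most 500 bases apart. Per kilobase, the H2A gene was the higher one in 8 pairs, and 5 of the pairs differed by more than 10-fold. Hist1h2ap at 47.1 CPM per kb lay 236 bases from Hist1h2br, which had 14 counts in all 12 libraries against 12557. Hist1h2ao was on average 70.9 times as high per kb as Hist1h2bq, and Hist1h2ag 39.8 times as high as Hist1h2bj, each being higher in all 12 libraries. For the first of these the counts were 4073 against 218, over lengths of 552 and 2015 bases. Only 6.11% of the stretches of 100 bases of Hist1h2bq and 14.2% of those of Hist1h2br occur in no other member. How reads that match several copies were counted is not stated, so these ratios are uncertain. The order was the other way round for Hist1h2bc, which was 21.2 times as high as Hist1h2ac, and for Hist2h2be, which was 17.9 times as high as Hist2h2ac, again in all 12 libraries. In the remaining pairs with counts for both genes the ratio was between 1.58 and 4.36.

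**Figure D5:**
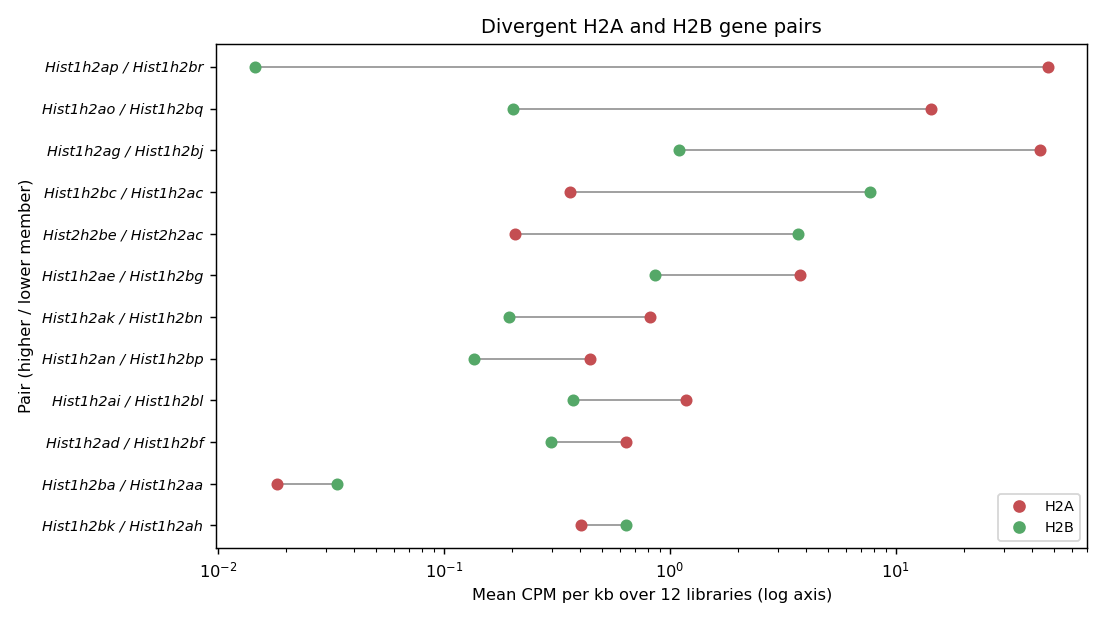
Mean CPM per kb over the 12 libraries, on a log axis, of the H2A and the H2B gene of 12 divergent pairs, ordered by their ratio. Hist3h2bb-ps with Hist3h2a is left out, as Hist3h2a had no counts. The upper 3 pairs have a far higher H2A gene, whereas in the pairs of Hist1h2bc and Hist2h2be the H2B gene is higher.

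The windows at 2 of these pairs are shown because each covers most or all of the space between the starts of genes with very unequal counts. They are RefSeq promoter windows on GRCm38.p6, from 250 bases before to 50 bases after the start of the H2A gene, on the minus strand, at chr13:21833426-21833725 for Hist1h2ap and chr3:96220831-96221130 for Hist2h2ac. Capitals mark CCAAT, the box bound by the factor NF-Y. They also mark the TATA box, searched as TATAAA, and the octamer motif, searched as ATTTGCAT, each in either direction.
Hist1h2ap: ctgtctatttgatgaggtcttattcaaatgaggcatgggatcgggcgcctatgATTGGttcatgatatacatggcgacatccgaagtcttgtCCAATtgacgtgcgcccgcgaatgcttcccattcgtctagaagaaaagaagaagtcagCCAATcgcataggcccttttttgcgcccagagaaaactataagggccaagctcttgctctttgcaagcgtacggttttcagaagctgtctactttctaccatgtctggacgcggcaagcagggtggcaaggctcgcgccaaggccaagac
Hist2h2ac: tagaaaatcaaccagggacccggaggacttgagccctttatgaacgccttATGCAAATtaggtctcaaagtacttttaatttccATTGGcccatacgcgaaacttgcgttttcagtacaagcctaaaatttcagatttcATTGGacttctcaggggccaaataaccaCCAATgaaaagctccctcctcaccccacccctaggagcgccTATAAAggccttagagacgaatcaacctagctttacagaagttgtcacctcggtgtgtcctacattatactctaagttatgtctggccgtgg
Promoter windows were found for 62 members, 63 windows in all, since Hist1h2be has 2. CCAAT was in 85.7% of them, against 37.4% of 32851 windows of all genes, and in every window of the H1, H2A, H2B and H3 genes but in 25.0% of those of the H4 genes. TATAAA was in 55.6% against 13.6%. The octamer motif was in 22.2% against 1.74%, and among the members in H2A and H2B windows only, at 38.9 and 41.2%. These are matches of letters on both strands, not measured sites.

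The testis-specific members make histones of later germ cells and were near the limit of detection at this stage. Hist1h1t, the testis H1 gene, had 56 counts over the 12 libraries and lay between 0.0270 and 0.206 CPM. Hist1h2aa and Hist1h2ba, an H2A and H2B pair, had 5 and 9 counts, and each was at 0 in most libraries. None of the 3 passed the filter, and no difference could be detected at this depth.

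Genes that make, carry or replace clustered histones were listed for comparison. Of 12 variant histone genes tested in F3, 11 were lower in *thia* by sign and 5 at an unadjusted p under 0.05, against 10.0% of all genes. Their median log2 fold change was -0.18. None was called by edgeR in the main F3 fit, which called 0% of all genes. H2afv, a variant of the H2A.Z type, was at 277, 260 and 232 CPM in F3 control and at 199, 182 and 209 CPM in F3 *thia* (log2 fold change -0.38 ± 0.09, SE, adjusted p = 0.11, edgeR). Cenpa, the histone of centromeres, had a log2 fold change of -0.36 ± 0.09 (SE, adjusted p = 0.12, edgeR). In F1 the median of the 12 was 0.04 and none had an unadjusted p under 0.05. Of 38 S phase genes in F3, 12 were lower and 0 higher at an unadjusted p under 0.05, against 10.0 and 11.0% of all genes. Their median was -0.11, and none was called by edgeR in the main F3 fit, as was no gene at all there. In F1 none of the 38 had an unadjusted p under 0.05. Of 20 genes that control histone mRNA, among them Slbp and Npat, 2 were higher and 2 lower at that level in F3, which is near the share over all genes, and 0 and 1 in F1. Of 18 histone chaperones it was 0 and 4 in F3, and 0 and 3 in F1. The shares over all genes in F1 were 4.63% higher and 4.13% lower. Between the controls, 5 of 12 variant histone genes were called as higher and 0 as lower in F3, against 19.9 and 22.4% of all genes, with H3f3a, a variant H3 gene, at 891, 856 and 833 CPM in F1 control and 1444, 1374 and 1334 CPM in F3 control (log2 fold change 0.69 ± 0.08, SE, adjusted p = 0.00022, edgeR). Over the same libraries, 10 of 20 histone mRNA control genes were called as lower and 2 as higher, against the same shares.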

How the data were processed

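Paired-end libraries (NEBNext Ultra II Directional) were made from total RNA of pooled E15.5 testes. Per the submitters' processing notes and the study's methods, the authors aligned reads with HISAT2 2.1.0 to mm10, counted them per gene symbol with featureCounts, and deposited raw counts for each library. The options for reads that match several genes are not given in the sources used here. The members and gene lists were chosen with earlier results of these data known.

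Counts were analysed with edgeR 4.0.16 (R 4.3.3). Genes were kept with filterByExpr (minimum count 10), scaled by TMM and tested with the quasi-likelihood F-test, with Benjamini-Hochberg adjustment over all genes. F1 and F3 were fitted apart, and the interaction and the control comparison in one fit of 12 libraries. Thresholds were an adjusted p of 0.15 in F1 and 0.1 in F3, as in the study. For the interaction and the control comparison, 0.1 was chosen here. The SE is the log2 fold change over the square root of F. Named members were, for each class, the one with the highest mean CPM and the one with the smallest p in each comparison, every member called, the testis-specific members, and at most 3 genes of each other list. Members named because their libraries did not overlap, and Hist3h2ba outside its calls, were chosen after their values were seen. Alternatives were DESeq2 1.42.0, other scalings, filters and thresholds, gene length and GC trends, one fit of all libraries, the replicate block and leaving out each library. The main edgeR test of each comparison, but not the alternatives, was checked on simulated counts. At a true log2 fold change of 1 in either direction, it recovered 75.5% of the changed genes in F1 and 59.6% in F3. It recovered 50.5% for the difference between generations and 66% between the controls. At a log2 fold change of 2 these were 94.8, 98.9, 79.8 and 92.9%. False calls numbered 35, 18, 18 and 7 in the same order. The changed genes were drawn from all genes in each fit, with the spread typical of their count level. The members, many with low counts or a wider spread, were not simulated apart, so these rates are not theirs. Library totals ran from 25081647 to 68996146 counts. The p-values cover the spread between pools of embryos. CPM per kb used the RefSeq span of genes with 1 exon and otherwise the smaller of that span and the GENCODE vM21 exon length.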

Additional observations from a re-analysis of the deposited data

Results flagged for a closer look

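Hist1h2ai, an H2A gene, was looked at again because it had the smallest p of the 48 members tested for a difference between the generations. Its log2 fold change of *thia* against control was 0.76 in F1, where all 3 *thia* libraries lay above the controls, and -0.43 in F3, where all 3 lay below. The difference was -1.17 ± 0.37 on the log2 scale (SE, adjusted p = 0.25, edgeR) and did not pass the correction over all genes. It was below 0 in each of 20 alternatives, with adjusted p from 0.19 to 0.52 in edgeR, but these draw on the same libraries. The F3 controls were also 1.71-fold above the F1 controls for this gene (adjusted p = 0.043, edgeR), and this shift enters the difference. The gene had 10 to 40 counts per library, and 18.0% of its stretches of 100 bases occur in no other member.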

How the results depend on the processing

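In F1 and for the difference between generations, no alternative called a member. In F3, 1 member of 11 with an adjusted p was called by DESeq2 (Hist3h2ba), against 14.9% of all genes, and 1 of 38 at an adjusted p below 0.15 (Hist1h2af), against 9.85%, and leaving out single libraries gave 0 to 1. Between the controls, the 9 calls became 5 with DESeq2, 4 without a low-count filter, 3 with at least 10 counts in every library, 4 with the gene length trend removed and 3 at an adjusted p below 0.05, and 2 to 11 without single libraries. The H1 log2 ratio in F3 was -0.48 without Hist1h1c. Some log2 fold changes near 0 changed sign. Hist1h1c in F3 was 0.0086 with DESeq2, 0.0067 with its size factors, 0.012 without a filter and 0.063 without the length trend. Hist1h4i in F3 was 0.0077, 0.0066, 0.0073 and 0.11 under the same 4 settings. Hist1h3c in F1 was 0.013 with upper quartile scaling, and Hist2h2be in F1 was -0.0096 without the length trend. Without single libraries, Hist1h1c in F3 ran from -0.31 to 0.18, Hist1h2ap from -0.21 to 1.00 in F1 and -0.055 to 0.65 in F3, Hist1h3c in F1 from -0.23 to 0.23, Hist1h4i in F3 from -0.33 to 0.38, and Hist2h2be from -0.030 to 0.18 in F1 and -0.0042 to 0.21 in F3. The cause was not tested.

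Deviations of same-numbered control and *thia* libraries from their group means had correlations of -0.04, -0.04 and 0.03 in F1 and 0.19, -0.37 and -0.24 in F3. Between libraries of unlike number they ran from -0.08 to 0.11 in F1 and from -0.37 to 0.46 in F3. The numbers were therefore not used as pairs, but with 3 libraries per group this check cannot exclude a pairing. With the replicate number as a block, the members called were 0 in F1, 0 in F3, 0 for the difference between generations and 9 between the controls, and Hist1h4i in F3 was 0.10. The median log2 fold change of the members was then 0.23, -0.07, -0.30 and 0.27. At this depth, 22 of the 69 members had under 100 counts in all, and few of these passed the filter in any comparison.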

Other observations

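Outside the clustered genes, the genes of RNAs that lack a poly(A) tail, as most clustered histone mRNAs do, had lower summed levels in the F3 libraries. Their sum was 22.4 ± 8.49 CPM in F1 control, 33.5 ± 21.1 in F1 *thia*, 6.08 ± 1.24 in F3 control and 4.35 ± 1.51 in F3 *thia* (SD, n = 3). Of 10 tested between the controls, 3 were called as lower in F3 and 0 as higher (adjusted p below 0.1, edgeR), which is near the 22.4% of all genes called as lower. Of 18 genes of G2 and mitosis, 10 were called as lower and 2 as higher in F3 control, against 22.4 and 19.9% of all genes, and 6 did not pass the test.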
